A study of Mus musculus with 22 samples.

Results

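Imprinted genes are expressed mainly from one parental copy. The 46 genes described here were listed by name as mouse imprinted genes, not by a threshold on any score, and all were found among the 21887 protein-coding genes of the mm10 gene table. As assigned here, 24 of them are expressed from the maternal copy and 21 from the paternal copy. Gnas was put in neither group because its copy depends on the transcript. The copy can also differ by transcript or tissue at other genes, such as Ddc and Grb10, which were counted as maternal. The 46 genes fall into 9 clusters of 2 or more genes and 9 single genes. Several of them, among them Slc22a2, Slc22a3, Cd81, Tssc4 and Osbpl5, are known as imprinted chiefly in the placenta, so the list does not state which were imprinted in these cells.

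Imprinting is in most cases set by DNA methylation that eggs and sperm place differently at control regions. Many clusters carry in addition repressive histone marks of the Polycomb system on the silent copy. PCGF6 is a RING finger protein of a variant Polycomb repressive complex 1 (PRC1), which also holds MGA, MAX and E2F6. RING1B is a ubiquitin ligase found in PRC1 and can place H2AK119ub1, a mark on histone H2A. CTCF binds insulators, some of which are read only on the unmethylated copy, and cohesin, of which RAD21 is a part, is halted by it.

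The series profiled these proteins by ChIP-seq in small intestinal crypts of C57BL/6 mice, wild type (WT) or with Pcgf6 deleted by Cre recombinase (KO), and in WT E14 embryonic stem cells (ESC). AhCre, induced by BNF, drove deletion in the mice profiled for PCGF6, RING1B and H2AK119ub1. Villin-Cre, induced by Tamoxifen and active in the gut epithelium, drove it in those profiled for RING1B, H2AK119ub1, CTCF and RAD21. The design text gives male mice of 8 to 12 weeks, with crypts taken 7 days after induction, and does not set WT apart from KO in this. That text speaks of RNA, and it was taken here to cover the WT and KO crypts for ChIP. The KO groups were crypts after an induced deletion, and any cells that escaped Cre would still make PCGF6.

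Every group had 1 library, so no value below has a replicate error and no test was made. Of 22 samples, 16 had a peak list and 6 were inputs. The lists held 1662 to 32651 peaks, each with a score of at least 10, which is the −log10 of the p or q value (which of them is not stated) that the authors' peak caller gave. No scaling of scores between libraries is recorded and the depth is unknown, so a score in WT and a score in KO are given side by side as the lists have them. A gene has a peak when one lies within 1 kb of either of its ends. Starts further inside a gene fall outside this window. A peak is called lost when the KO list has none there and none that overlaps the WT peak, and gained in the reverse case. Of the 8 epithelial marker genes, 6 had a PCGF6 peak in WT crypts, beside 39.9% of all genes. Of 8 mesenchymal or endothelial markers 2 had one, and of 6 immune markers 1. The highest score among these markers was at the mesenchymal Col1a1 (120), above the highest epithelial one at Cdh1 (52.5). RING1B in the 4 crypt lists lay at 0 to 3 of the 8 epithelial markers and at 2 of the 8 mesenchymal or endothelial ones, Pdgfra and Vim in every list. Over all genes these lists had RING1B at 4.89% to 14.2%. A peak does not show which cells of the crypt preparation carried it.

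Promoter sequences were available for 37 of the 46 genes, in 60 start windows of RefSeq (GRCm38.p6, each 250 bases before to 50 after a start). The 4 windows that held CACGTG, the E-box bound by MGA and MAX, are shown because all 4 carried a PCGF6 peak in ESC, and the Tssc4 window because it is the one under a crypt PCGF6 peak that held the E2F letters TTCCCGC. Capitals mark the E-box, or in Tssc4 the reverse complement of the E2F letters, and all windows read 5′ to 3′ along the gene. Igf2r is on the minus strand at chr17:12769657-12769956, Osbpl5 on the minus strand at chr7:143756959-143757258 and Plagl1 on the plus strand at chr10:13090582-13090881. Ppp1r9a is on the plus strand at chr6:4903061-4903360, and Tssc4 on the plus strand at chr7:143069118-143069417.
Igf2r: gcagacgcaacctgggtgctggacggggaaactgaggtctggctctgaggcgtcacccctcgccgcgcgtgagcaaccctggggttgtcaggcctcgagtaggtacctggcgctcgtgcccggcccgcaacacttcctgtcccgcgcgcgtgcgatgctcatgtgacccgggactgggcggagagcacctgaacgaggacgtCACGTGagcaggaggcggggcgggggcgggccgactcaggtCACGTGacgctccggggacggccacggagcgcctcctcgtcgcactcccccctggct
Osbpl5: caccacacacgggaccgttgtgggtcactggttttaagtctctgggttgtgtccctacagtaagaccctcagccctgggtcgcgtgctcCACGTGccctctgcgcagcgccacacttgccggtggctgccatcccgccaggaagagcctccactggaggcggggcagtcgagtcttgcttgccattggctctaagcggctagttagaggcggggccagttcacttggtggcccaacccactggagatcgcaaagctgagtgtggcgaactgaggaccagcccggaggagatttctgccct
Plagl1: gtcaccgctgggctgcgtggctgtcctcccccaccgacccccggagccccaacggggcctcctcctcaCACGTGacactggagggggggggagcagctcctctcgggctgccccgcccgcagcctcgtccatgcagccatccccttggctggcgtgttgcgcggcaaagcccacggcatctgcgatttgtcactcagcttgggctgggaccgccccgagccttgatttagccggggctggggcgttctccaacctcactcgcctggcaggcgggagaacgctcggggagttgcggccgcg
Ppp1r9a: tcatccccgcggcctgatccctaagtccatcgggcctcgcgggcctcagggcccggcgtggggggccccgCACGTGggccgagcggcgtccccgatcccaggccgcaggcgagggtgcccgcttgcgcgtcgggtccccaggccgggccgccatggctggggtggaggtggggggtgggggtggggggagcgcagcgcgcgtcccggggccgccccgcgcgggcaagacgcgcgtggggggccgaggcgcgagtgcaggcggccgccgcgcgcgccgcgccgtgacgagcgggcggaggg
Tssc4: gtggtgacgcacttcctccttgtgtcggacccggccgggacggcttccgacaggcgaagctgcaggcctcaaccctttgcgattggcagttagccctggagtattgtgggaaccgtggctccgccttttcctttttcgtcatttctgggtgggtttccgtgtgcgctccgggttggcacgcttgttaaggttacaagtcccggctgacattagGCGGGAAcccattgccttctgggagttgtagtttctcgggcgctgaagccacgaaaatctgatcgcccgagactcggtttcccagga
The Igf2r window is the member promoter with a pair of E-boxes, beginning 48 and 7 bases before the start. In Osbpl5 the E-box begins 161 bases before the start, in Plagl1 182 and in Ppp1r9a 180. The Tssc4 letters begin 37 bases before it. Both strands were searched. CACGTG stood in 4 of 60 member windows (6.67%) and in 7.84% of all 21263 windows of protein-coding genes. Of the 18 member windows under an ESC PCGF6 peak 4 held it (22.2%), and of the 42 others none did. Over all genes these shares were 17.0% and 5.78%. In WT crypts PCGF6 covered the E-box windows of Igf2r and Osbpl5, while those of Plagl1 and Ppp1r9a had no crypt PCGF6 peak. TTCCCGC stood in 3.33% of member windows and 5.95% of all, the T-box letters TCACACC in 5.0% and 3.68%, and AAGATGG, bound by YY1, in 3.33% and 6.24%. TGCCGC, the letters bound by the imprint guardian ZFP57, stood in 21.7% of member windows and 14.1% of all. Among the 13 member windows under a crypt PCGF6 peak TGCCGC was in none, and among the other 47 it was in 13. Over all genes it was in 20.9% of covered windows and 10.5% of the rest. The 13 covered windows came from 12 genes and the 47 from 28. Overlapping windows of a gene were counted separately in all these counts. Among the covered ones are overlapping Gnas windows, and among the others with TGCCGC are overlapping Mest windows. Member windows under a crypt PCGF6 peak had a median of 23 CpG against 10 in the others, and over all genes 23 against 6. A match of letters is a description and not evidence of binding.

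In WT crypts PCGF6 lay at 17 of the 46 imprinted genes (37.0%), where 39.9% of all genes had a peak. Of all genes with a WT peak, 64.4% lost it in KO crypts. Of the 17 imprinted genes 10 still had one and 7 did not (41.2%), and none gained one, which 0.152% of genes without a WT peak did. Genes with PCGF6 in KO crypts were 21.7% of the imprinted genes and 13.7% of all genes, and the PCGF6 list itself held 17163 peaks in WT and 4779 in KO. The peak of all 10 was listed with a lower KO score, and over all genes with a peak in both genotypes the KO score was the higher in 1.78%. The 7 that lost it had a median WT score of 17.4 against 39.2 for those that kept it, with overlap, since Peg10 lost a peak of 42.4. Over all genes these medians were 17.0 and 39.6. PCGF6 peaks thus remained listed at 10 genes after the deletion, 9 peaks when shared ones are counted once, and what they hold was not tested. When the WT list was limited to its strongest peaks, as many as the KO list held, 1 gene and not 7 had lost its peak, and of the 7 lost peaks 1, at Peg10, had a WT score of 20 or more.

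RING1B was listed at 11 imprinted genes in WT AhCre crypts (23.9%, against 7.74% of all genes) and at 17 in WT Villin crypts (37.0%, against 14.2%). In KO crypts it was at 9 (19.6%, against 4.89%) and 10 (21.7%, against 7.61%). Neighbouring genes can share a peak. Counted once, the RING1B peaks numbered 10 in WT and 8 in KO AhCre crypts, and 15 and 9 in Villin crypts. The shares of all genes count each gene of a shared peak too. H2AK119ub1 was listed at 12 in WT AhCre crypts (26.1%, against 16%) and at 8 in WT Villin crypts (17.4%, against 10.4%). In KO crypts it was at 13 (28.3%, against 17.7%) and 5 (10.9%, against 8.85%). CTCF lay at 8 (17.4%, against 25.5%) and RAD21 at 7 (15.2%, against 22.2%) in WT, and at 9 (19.6%, against 23.2%) and 2 (4.35%, against 14%) in KO crypts. In ESC, PCGF6 and RING1B each lay at 17 (37.0%, against 22.7% and 17.8%), with 12 genes in common (70.6% of either list). Over all genes, those in common were 49.8% of the genes with ESC PCGF6 and 63.3% of those with ESC RING1B. In all, 39 genes had a peak in some list and 30 had one in a crypt list of PCGF6, RING1B or H2AK119ub1. These counts across lists were not made over all genes. With 1 library a group these shares are descriptions, and no share was tested against that of all genes.

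**Figure D1:**
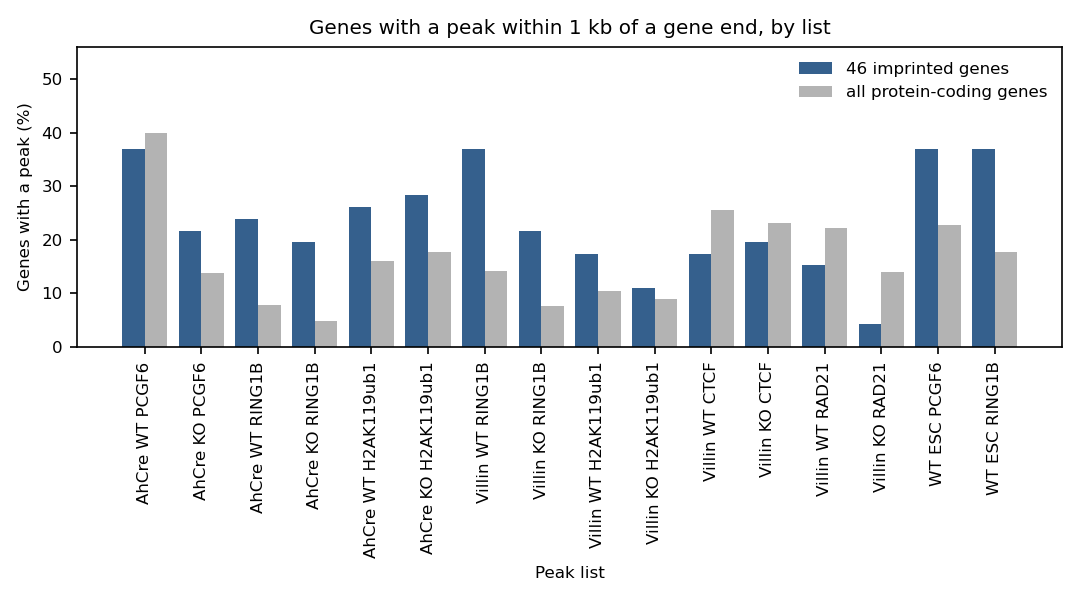
Bars give the percentage of genes with a peak within 1 kb of a gene end in each of the 16 lists (1 library each), for the 46 imprinted genes and for all 21887 protein-coding genes. The imprinted genes stand above all genes in the RING1B and H2AK119ub1 lists and below them in the CTCF and RAD21 lists, while in WT crypt PCGF6 they are at 37.0% against 39.9%.

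In KO crypts the imprinted genes kept most of their RING1B in the AhCre line. Of 11, 8 kept it and 2 lost it, Igf2r and Osbpl5 (18.2%, where 44.7% of all genes with a WT peak lost theirs). At Mest the KO peak overlapped the WT peak but lay outside the window. Asb4 gained a peak (as did 0.782% of genes without a WT peak). In the Villin line 10 of 17 kept RING1B and 7 lost it (41.2%, against 53.7% of all genes with a WT peak), and none gained it (1.31% of genes without a WT peak did). The 7 were Igf2r, Osbpl5, Peg3, Usp29, Ube3a, Blcap and Zrsr1, of which Peg3 and Usp29 share 1 peak. Of the 10 genes with RING1B in WT crypts of both lines, 2 lost it in both, the same Igf2r and Osbpl5, and 8 kept it in both. Over all 1452 such genes 18.7% lost it in both and 53.7% kept it in both. Both genes that lost it in both lines have an E-box in the printed window, and so does Plagl1, which kept it in both. Of the other genes that kept it in both, Cd81 and Phlda2 had no E-box in their windows. For Cdkn1c, Peg10, Sgce, Klf14 and Impact no promoter sequence was available, so the E-box cannot be set against loss. With lists of equal length 1 gene had lost RING1B in AhCre crypts and 1 in Villin crypts, and Igf2r was the gene with a lost peak of 20 or more in either line. The KO score was the higher at 5 of the 8 genes that kept RING1B in AhCre crypts (over all genes with a peak in both genotypes, at 23.2%) and at 3 of the 10 in Villin crypts (20.9%). Peg10 and Sgce, which share the peak, were higher in KO in both lines.

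**Figure D2:**
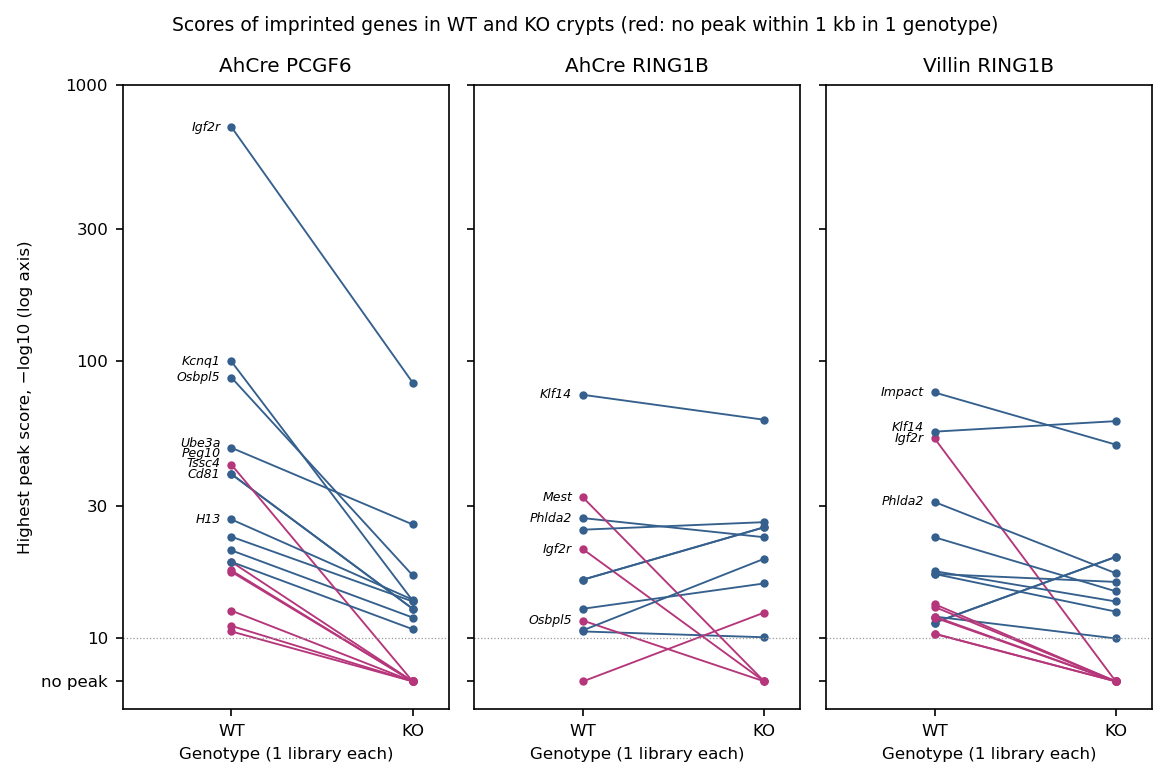
Each line joins a gene's highest score within 1 kb of its ends in the WT and the KO library (−log10, log axis, dotted line at the list threshold of 10, with genes without a peak placed at the bottom). PCGF6 lines all go down, from 702 to 83.9 at Igf2r, whereas RING1B at Klf14 and Impact stays between 24.7 and 77.3 in all 4 libraries.

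H2AK119ub1 differed between the Cre lines in what the KO lists held. In the AhCre line 10 of 12 kept it and 2 lost it, the neighbours Peg10 and Sgce, which share their peak (16.7%, against 12.8% of all genes). Phlda2, Plagl1 and Nnat gained it (as did 4.26% of genes without a WT peak). The highest KO score in the window was above that of WT at 9 of the 10 that kept it, all but Igf2, and over all genes in 61.9%. These can be different peaks of a gene. When the strongest WT peak was set against the KO peak that overlaps it, in the window or not, KO was the higher at 8 of 10, all but Cdkn1c (25.2 in WT, 16.2 in KO) and Slc22a3 (12.2 and 11.4), and over all genes in 61.1%. In the Villin line 4 of 8 kept it and 4 lost it, Slc22a3, Cd81, Cdkn1c and Phlda2 (50%, against 29.3%). None gained it (1.81% of genes without a WT peak did), and at Igf2 a KO peak reached into the window from a WT peak outside it. No gene lost H2AK119ub1 in both lines, which 1.8% of all genes with it in both did, and Klf14, Osbpl5, Grb10 and Dio3 of the 6 such genes kept it in both (72.9% of all genes did). In the Villin line the KO score was the higher at 1 of the 4 that kept it, Klf14, and over all genes in 38.9%. All 4 genes that lost it there had WT scores of 11.5 to 14.4.

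**Figure D3:**
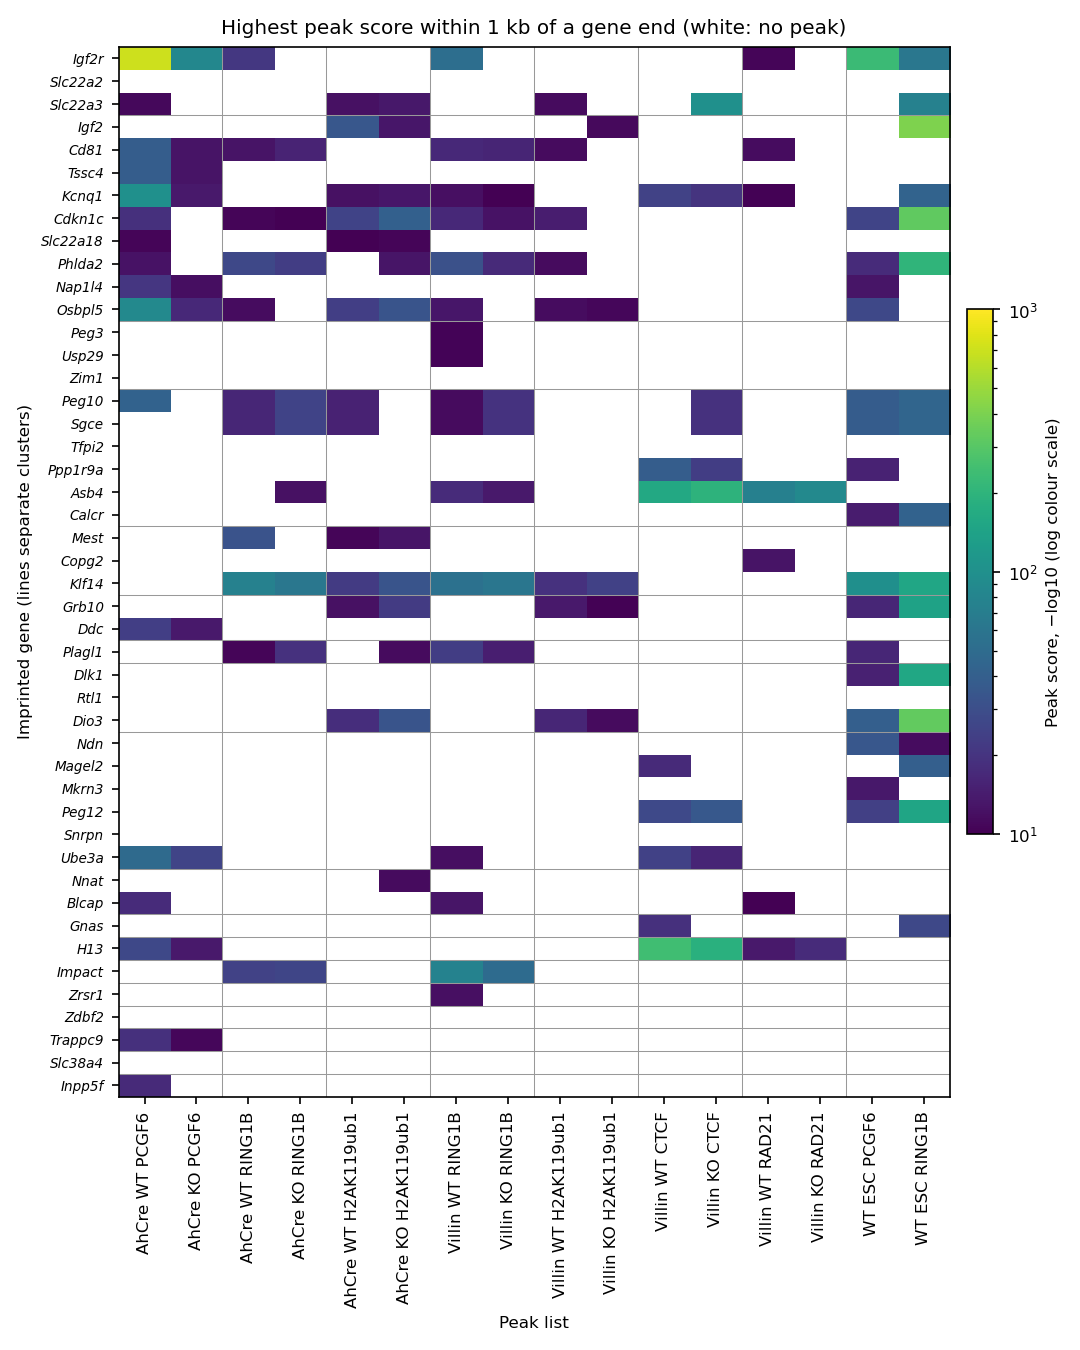
Rows are the 46 imprinted genes grouped by cluster and columns are the 16 peak lists; colour is the highest score within 1 kb of a gene end (−log10, log colour scale) and white is no peak. The highest cell is PCGF6 at Igf2r in WT (702), Klf14 is coloured across RING1B and H2AK119ub1 without crypt PCGF6, and Dlk1, Ndn and Calcr are coloured in the ESC columns alone.

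Igf2r, the receptor that clears the growth factor IGF2, is expressed from the maternal copy and had the highest PCGF6 score of the 46 genes. Its WT score was 702, the 20th highest of the 17163 peaks, and its KO score was 83.9. RING1B at the start scored 21.0 in WT AhCre crypts and 52.8 in WT Villin crypts, and neither KO list had a peak there. The nearest KO RING1B peaks lay 2364026 bases (AhCre) and 2363971 bases (Villin) from the gene. ESC held PCGF6 (232) and RING1B (61.6) at the same start, and none of the 4 H2AK119ub1 lists did. A weak RAD21 peak in WT (10.6) was absent in KO. So at this gene PCGF6 and RING1B were listed together without the mark. Inside the gene a WT PCGF6 peak of 30.1, from 12722185 to 12725121 on chromosome 17, had no KO peak. An ESC RING1B peak of 22 lay within 1 kb of an end of Airn, the antisense RNA that silences Igf2r on the paternal copy. The transporter gene Slc22a3 had PCGF6 in WT crypts (11.1, none in KO) and a pair of H2AK119ub1 peaks in AhCre crypts, one at 12.2 in WT and 11.4 in KO and the other at 10.7 and 13.5. In Villin crypts H2AK119ub1 scored 11.5 in WT and was absent in KO. It had RING1B in ESC (75.7). Slc22a2, a transporter gene beside it, had no peak at its ends in any list.

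The distal chromosome 7 domain, from Igf2 to Osbpl5, held 9 of the genes and 8 of the 17 with PCGF6. All but Igf2 had it in WT crypts, and 5 had it in KO crypts. Osbpl5, which encodes an oxysterol-binding protein relative, scored 87.5 in WT and 16.9 in KO. Its RING1B was 11.6 in WT AhCre and 13.3 in WT Villin crypts, with no peak in either KO, and its H2AK119ub1 was listed throughout (23.3 and 33.1 in WT and KO AhCre, 11.7 and 10.9 in Villin). Osbpl5 thus kept the mark in both lines where it lost RING1B. ESC had PCGF6 there at 27.0 and no RING1B within the window. The potassium channel gene Kcnq1 had PCGF6 at 100 in WT and 13.7 in KO. Its RING1B was present in Villin crypts (12.0 and 10.0), its H2AK119ub1 in AhCre crypts (12.2 and 13.1), its CTCF scored 25 and 20 (with a second KO peak of 25.5 over the WT peak, outside the window), and its RAD21 (10.3) was absent in KO. ESC RING1B scored 43.1 there.

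Cd81, a tetraspanin gene, and Tssc4, a gene for a splicing factor partner, share the PCGF6 peak that covers the printed Tssc4 window (39.2 in WT, 12.8 in KO). At its own start Cd81 had a second, weaker WT PCGF6 peak of 11.8 with no KO peak. RING1B lay at that start in all 4 crypt lists, at 12.8 in WT and 15.8 in KO AhCre crypts and at 17.1 and 16 in Villin crypts. In WT Villin crypts it had H2AK119ub1 (11.5) and RAD21 (11.7), both absent in KO. Tssc4 had no other peak at its ends.

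Cdkn1c, the maternally expressed inhibitor of the cell cycle, and Phlda2, a growth-limiting gene of the placenta, had both lost PCGF6 in KO (18.9 and 12.6 in WT). They kept RING1B. At Cdkn1c it scored 10.6 in WT and 10.1 in KO AhCre crypts and 17.1 and 12.5 in Villin crypts. At Phlda2 it scored 27.2 and 23.2 with AhCre and 31.1 and 17.2 with Villin-Cre. In the ESC list RING1B scored 325 and 204, beside PCGF6 at 25.9 and 17.5. In AhCre crypts a WT H2AK119ub1 peak of 25.2 at Cdkn1c overlapped a KO peak of 16.2. Beside it a broader WT peak of 27.6, just outside the window, overlapped a KO peak of 41.4 that reached into it. In Villin crypts the mark was 14.4 in WT with no KO peak. At Phlda2 it was absent in WT and 12.9 in KO AhCre crypts, and 11.5 in WT and absent in KO Villin crypts. At both genes the KO list of the AhCre line had the mark and that of the Villin line did not.

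Slc22a18, a transporter gene, had PCGF6 at 10.6 in WT and none in KO, with H2AK119ub1 at 10.1 and 10.6 near its far end in AhCre crypts. Nap1l4, a histone chaperone gene, had PCGF6 at 20.8 in WT and 11.9 in KO and at 12.9 in ESC. Igf2, the paternally expressed growth factor gene, was the member of the domain without PCGF6 at its ends in any list. Inside the gene ESC PCGF6 peaks of 18.2 and 13.1 overlapped RefSeq start windows from 142658755 and 142661222 on chromosome 7. Its ESC RING1B peak scored 410, the highest of all the imprinted genes, and covered 8720 bp. In crypts RING1B lay inside the gene, 1949 bp from its nearest end in WT AhCre crypts, and so outside the window. It scored 67.3 in WT and 62.1 in KO AhCre crypts and 64.1 and 50.4 in Villin crypts. These RING1B peaks covered the start window from 142661222, as did H2AK119ub1 in every crypt list of the mark. In AhCre crypts 1 WT H2AK119ub1 peak of 34.7 covered the same part and reached the window. In KO it was overlapped by a peak of 40.3 inside the gene and one of 13.3 at the end. In KO Villin crypts a peak of 11.2 reached the window, while the WT Villin peak (18) ended 1800 bp from the gene end.

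**Figure D4:**
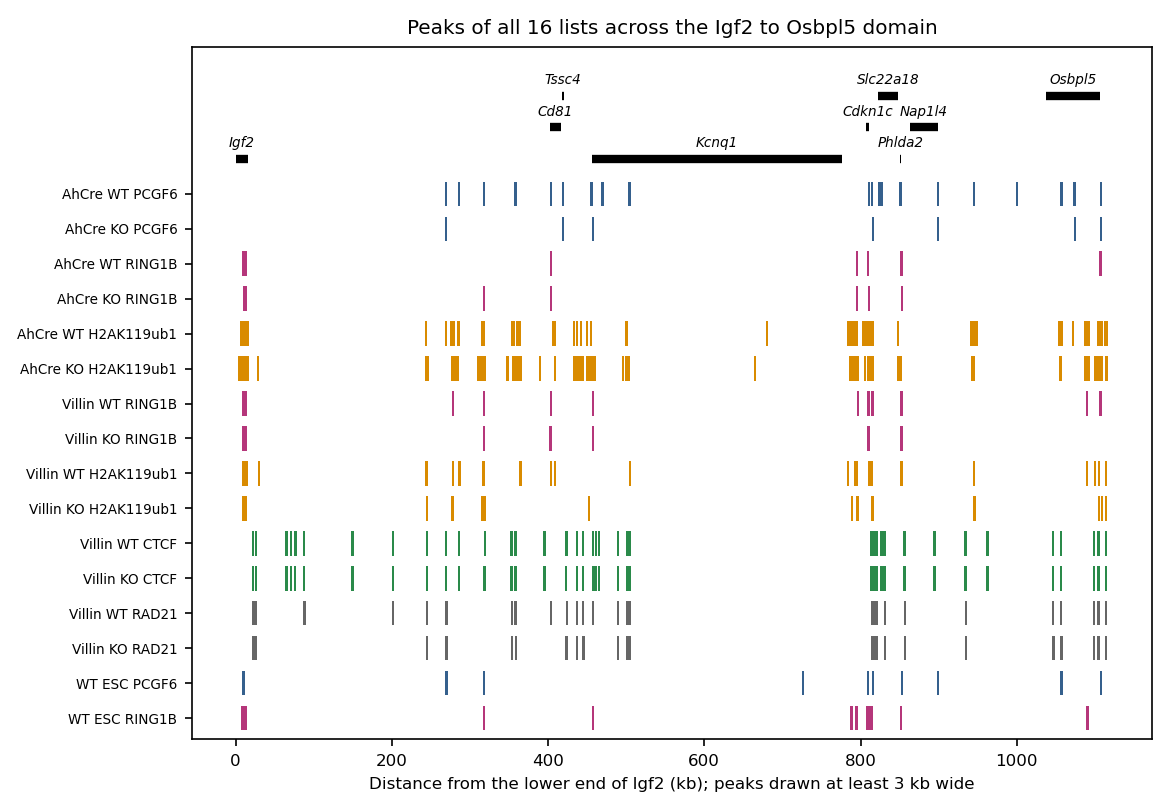
Bars are the peaks of all 16 lists along the domain from Igf2 to Osbpl5, by distance from the lower end of Igf2 in kb, with genes in black above and short peaks widened to be visible. PCGF6 bars number 20 in WT and 7 in KO AhCre crypts, RING1B bars 7 and 6 with AhCre and 13 and 7 with Villin-Cre, and CTCF bars 38 and 39.

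Over the whole domain with 10 kb on either side, WT AhCre crypts had 20 PCGF6 peaks covering 25907 bp and KO crypts 7 covering 5031 bp. RING1B peaks numbered 7 in WT and 6 in KO AhCre crypts, and 13 and 7 in Villin crypts. H2AK119ub1 peaks numbered 44 and 55 in AhCre crypts (104153 and 110738 bp) and 22 and 18 in Villin crypts (32932 and 26779 bp). CTCF peaks numbered 38 and 39, and RAD21 peaks 27 and 23. The whole lists changed in the same directions for PCGF6 (17163 to 4779 peaks), for RING1B (2368 to 1662 with AhCre, 4403 to 2464 with Villin-Cre), for H2AK119ub1 (13175 to 16039 and 6219 to 5492) and for RAD21 (20653 to 17762), and the CTCF list went from 32651 to 32143. Ascl2, the intestinal stem cell regulator of the same domain, is not among the 46 but had PCGF6 at 67.7 in WT and none in KO. With AhCre, Ascl2 had RING1B in the KO list alone (11.6), and with Villin-Cre it had RING1B at 26.2 in the WT list and 19.4 in the KO list.

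At Peg10, a gene derived from a retrotransposon and expressed from the paternal copy, PCGF6 scored 42.4 in WT and was absent in KO. RING1B on the promoter that Peg10 shares with Sgce, the sarcoglycan gene beside it, was listed with the higher score in KO in both lines, 16.3 and 25.2 with AhCre and 11.4 and 19.7 with Villin-Cre. H2AK119ub1 there (15.6 in WT AhCre) was absent in KO, and CTCF, absent in WT, was 19.4 in KO Villin crypts. ESC had PCGF6 (38.1) and RING1B (45.2) on it. The PCGF6 peak counts for Peg10 and not for Sgce because it lies 1028 bp from the end of Sgce, just outside the window, and 926 bp from that of Peg10, just inside. Asb4, a gene for an ankyrin-repeat protein, had RING1B in KO AhCre crypts alone of that line (12.4) and in both Villin genotypes (17.5 and 13.6). It had the highest RAD21 score of the 46 genes (74.4 in WT and 87.7 in KO) and CTCF at 162 and 195. Ppp1r9a, a neuronal scaffold gene, had CTCF at 38.9 and 23.0 and ESC PCGF6 at 15.6 over the printed E-box window. Calcr, the calcitonin receptor gene, had end peaks in ESC only (PCGF6 14.3, RING1B 42.6), and Tfpi2, a protease inhibitor gene, had none.

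Klf14, a maternally expressed transcription factor gene, had RING1B and H2AK119ub1 in every crypt list of those marks and no crypt PCGF6. RING1B scored 75.8 in WT and 61.6 in KO AhCre crypts, and 55.8 and 60.9 in Villin crypts. H2AK119ub1 scored 22.1 and 33.1 with AhCre and 19.2 and 24.4 with Villin-Cre. In ESC PCGF6 was present at 99.0 beside RING1B at 153. In Mest, a paternally expressed gene for a hydrolase-like protein, RING1B lay inside the gene in all 4 crypt lists. Its edge was within the window in WT AhCre crypts (32.3), at 1685 bp in KO AhCre (42.3), at 1034 bp in WT Villin (39.3) and at 1670 bp in KO Villin crypts (35.5). RING1B in all 4 crypt lists covered the Mest start windows from 30737800 and 30737803 on chromosome 6, as did H2AK119ub1 in all 4 crypt lists. ESC RING1B covered them too. At the outermost start of Mest H2AK119ub1 was 10.6 and 12.9 in AhCre crypts. Copg2, a coatomer gene, had a weak RAD21 peak in WT (12.8) and none in KO, and a PCGF6 peak inside the gene of 83.4 in WT and 21.0 in KO.

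Grb10, a growth-restraining adaptor, had H2AK119ub1 without RING1B at its ends in crypts (12.2 in WT and 19.6 in KO with AhCre, where KO had another peak of 22.3, and 13.6 and 10.3 with Villin-Cre). ESC had RING1B (142) and PCGF6 (16.4) there. Within Grb10 a WT Villin RING1B peak of 21.9, from 12025616 to 12026789 on chromosome 11, had no KO peak in the gene, and ESC had RING1B (53.0) and PCGF6 (30.2) over it. Ddc, the decarboxylase gene beside it, had PCGF6 at 23.3 in WT and 13.6 in KO. Plagl1, a zinc finger gene that restrains proliferation, kept RING1B in both lines on the printed window, 10.7 and 19.4 with AhCre and 23.2 and 14.8 with Villin-Cre. H2AK119ub1 there was in KO AhCre crypts only (11.4), and PCGF6 was in ESC only (16.3). The E-box window of Plagl1 thus differed from those of Igf2r and Osbpl5 in having RING1B without crypt PCGF6.

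In the Dlk1 to Dio3 cluster, Dio3, the enzyme that inactivates thyroid hormone, had H2AK119ub1 in all 4 crypt lists (18.4 and 33.0 with AhCre and 16.5 and 11.4 with Villin-Cre) and no crypt RING1B. ESC RING1B scored 328 and PCGF6 40.6. Dlk1, a Notch-like membrane protein gene, had end peaks in ESC only (RING1B 156, PCGF6 15.3), and Rtl1, another retrotransposon-derived gene, had none. The Prader-Willi cluster of brain-expressed genes was listed mainly in ESC. Ndn (RING1B 11.6, PCGF6 34.7), Peg12 (150 and 24.0), Magel2 (RING1B 40.4) and Mkrn3 (PCGF6 13.4) had ESC peaks and no crypt peak of PCGF6, RING1B or H2AK119ub1. Snrpn, a splicing protein gene, had none at its ends. Ube3a, the ubiquitin ligase gene of Angelman syndrome, was the exception. It had PCGF6 at 48.8 in WT and 25.8 in KO, RING1B in WT Villin crypts (11.9) and not in KO, and CTCF at 24.3 and 16.2, with no ESC peak of either protein.

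Blcap, an apoptosis-linked gene, had PCGF6 (17.6), Villin RING1B (13) and RAD21 (10.1) in WT and none of them in KO. Nnat, a proteolipid gene that lies inside Blcap, had H2AK119ub1 in KO AhCre crypts alone (11.4). H13, a signal peptide peptidase gene, had PCGF6 at 26.9 and 13.8, the highest WT CTCF score of the 46 genes (242, with 187 in KO), and RAD21 at 13.6 and 17.6. Trappc9, a vesicle-tethering gene, had PCGF6 at 18.9 in WT and 10.8 in KO. Inpp5f, a phosphatase gene, had it at 17.4 in WT only. Impact, a translation regulator, had RING1B and nothing else at its ends, at 24.7 and 26.3 with AhCre and 77.3 and 50.1 with Villin-Cre. Peg3, a zinc finger gene, and Usp29, a protease gene, share a WT Villin RING1B peak of 10.4 that was absent in KO. Zrsr1, a splicing factor retrogene, had one of 12.0, also absent in KO. Gnas, which encodes the stimulatory G protein subunit, had CTCF in WT (18.8) and not in KO, and ESC RING1B (26.9). Inside Gnas a WT crypt PCGF6 peak of 58.3 and an AhCre RING1B peak of 11.9 had no KO peak of either protein in the gene. H2AK119ub1 peaks there were in the KO lists of both lines (12.9 and 10.3) and in neither WT list. ESC had PCGF6 (56.1) and RING1B (259) over the same bases. WT crypt PCGF6, ESC PCGF6 and ESC RING1B covered Gnas start windows from 174327499 and 174327518 on chromosome 2. Zim1, a zinc finger gene, and Slc38a4, an amino acid transporter gene, had no peak at their ends in any list.

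Zdbf2, a paternally expressed gene of the growth axis, was among the 7 genes with no peak at either end, and held more RING1B peaks within its body than any other of the 21887 genes in 3 of the 4 crypt lists. In WT AhCre crypts there were 9, covering 20803 bp, with scores from 10.3 to 104. KO AhCre crypts had 8 (20655 bp, up to 114). WT Villin crypts had 8 (26204 bp, up to 83.2) and KO Villin crypts 6 (13671 bp, up to 59.2), where 2 genes, Zdbf2 included, had as many. The gene spans 114219 bp, and 1838 of 21887 genes had any RING1B peak in the body in WT AhCre crypts. This ranking is by number of peaks, and a broad peak counts once. The broadest RING1B peak of the WT AhCre list covered 56935 bp. Genes were not ranked by covered bases or by peaks per gene length. The peaks formed 1 block in the middle of the gene. No PCGF6 peak lay in it in crypts, and ESC had 1 PCGF6 peak (16.9) and 2 RING1B peaks (35.6 and 33.1) within the block. H2AK119ub1 peaks in it numbered 3 in WT and 8 in KO AhCre crypts (4380 and 22271 bp), and 2 and 1 in Villin crypts (4550 and 1027 bp).

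**Figure D5:**
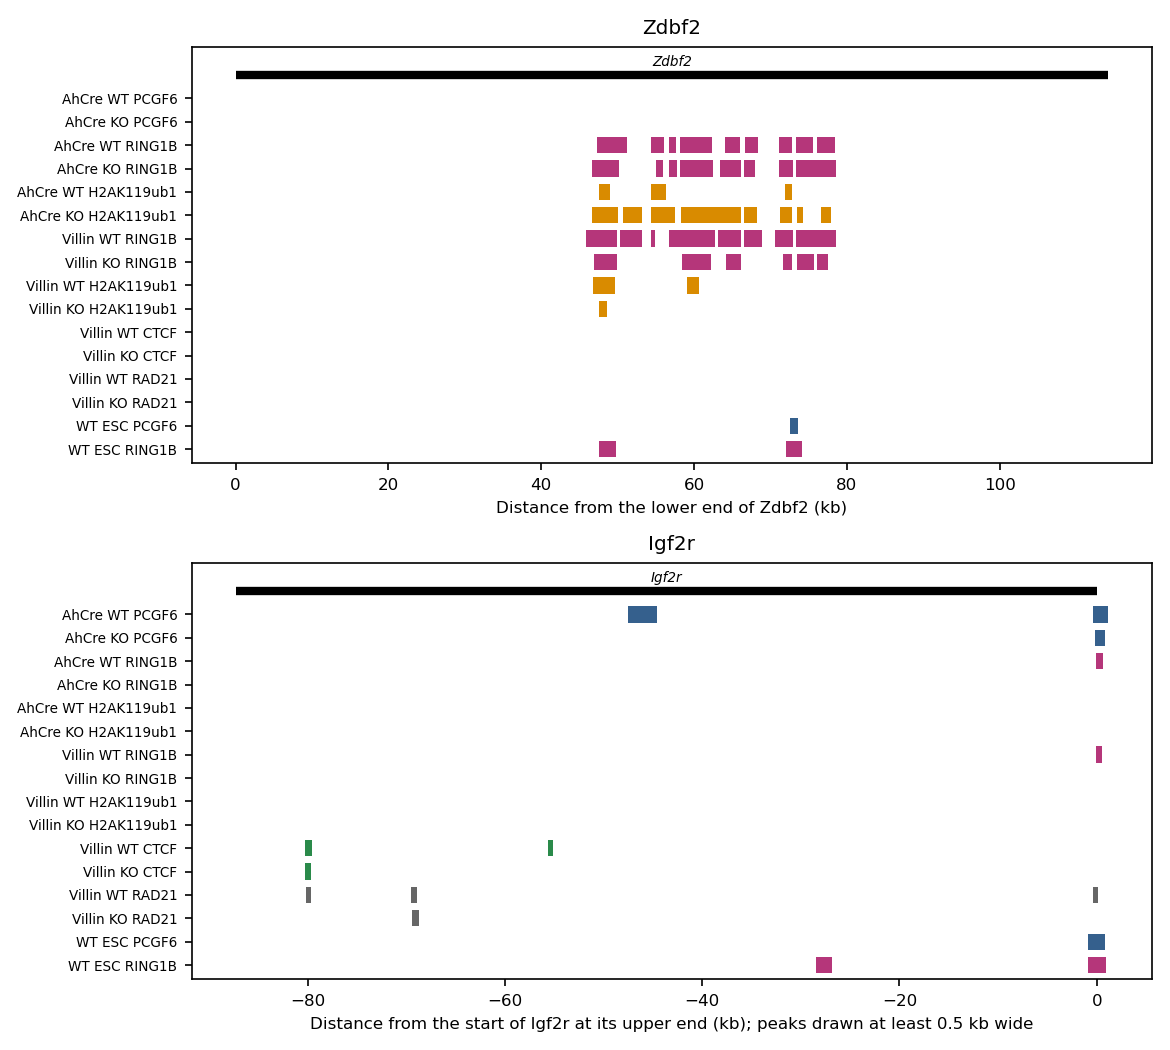
Bars are the peaks of all 16 lists along Zdbf2 (distance from its lower end, kb) and Igf2r (distance from its start, kb), with the gene in black and short peaks widened to be visible. RING1B fills a block inside Zdbf2 in all 4 crypt lists without crypt PCGF6, whereas at the start of Igf2r RING1B is in both WT lists and in neither KO list.

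Counting the whole gene body as well as the ends added genes to every list. PCGF6 was then at 22 imprinted genes in WT crypts (47.8%, beside 47.9% of all genes) and at 11 in KO (23.9%, beside 17.7%). RING1B was at 14 in WT (30.4%, beside 9.22%) and 12 in KO AhCre crypts (26.1%, beside 5.97%), and at 22 in WT (47.8%, beside 17.0%) and 13 in KO Villin crypts (28.3%, beside 9.3%). H2AK119ub1 was at 18 (39.1%, beside 20.6%) and 21 (45.7%, beside 22.5%) with AhCre and at 13 (28.3%, beside 13.6%) and 10 (21.7%, beside 11.8%) with Villin-Cre. CTCF went from 8 to 21 in WT (45.7%, beside 49.0%) and 22 in KO (47.8%, beside 47.7%), with peaks inside genes such as Osbpl5 (443 in WT and 357 in KO), Inpp5f (247 and 258) and Grb10 (158 and 247). RAD21 was at 16 (34.8%, beside 38.9%) and 14 (30.4%, beside 32.6%), ESC PCGF6 at 23 (50%, beside 28.6%) and ESC RING1B at 20 (43.5%, beside 21.1%). Gene length was not matched in these shares.

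By expressed copy as assigned here, PCGF6 in WT crypts was at 15 of the 24 maternally expressed genes (62.5%, beside 39.9% of all genes). It was at 2 of the 21 paternally expressed ones, Peg10 and Inpp5f (9.52%). The domain of distal chromosome 7 gave 8 of the 15. Without it the counts were 7 of 16 (43.8%) and 2 of 20 (10.0%). KO crypts had 10 maternal and 0 paternal genes with PCGF6 (41.7% and 0%, beside 13.7% of all genes). Ddc is among the maternal genes with PCGF6 in both genotypes, and its copy can differ by transcript. RING1B was at 6 of 24 and 5 of 21 in WT AhCre crypts, beside 7.74% of all genes. In WT Villin crypts it was at 10 and 7 (41.7% and 33.3%, beside 14.2%). ESC PCGF6 was at 9 and 8 (37.5% and 38.1%, beside 22.7%). H2AK119ub1 was at 7 and 5 in WT AhCre crypts (29.2% and 23.8%, beside 16%). In WT Villin crypts it was at 7 and 1 (29.2% and 4.76%, beside 10.4%). CTCF was at 5 and 2 in WT crypts (20.8% and 9.52%, beside 25.5%). RAD21 was at 7 maternal and 0 paternal genes in WT crypts (29.2% and 0%, beside 22.2% of all genes). The richest promoter of a gene had a median of 21 CpG in the 19 maternal genes with a sequence and 15 in the 17 paternal ones, and its part in the difference was not tested. The reads were not assigned to parental copies in these lists, so the copy that carried a peak cannot be told. Members of 1 cluster are neighbours and share chromatin, so these counts are a description.

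Crypts and ESC shared a part of these genes. Of the 17 with PCGF6 in WT crypts 6 also had it in ESC (35.3% of either list), namely Igf2r, Cdkn1c, Phlda2, Nap1l4, Osbpl5 and Peg10. Over all genes 39.6% of those in crypts had it in ESC, and 69.7% of those in ESC had it in crypts. ESC RING1B was at 6 of the 11 genes with it in WT AhCre crypts (54.5%) and at 7 of the 17 in WT Villin crypts (41.2%), and over all genes these shares were 64.7% and 53.5%. The genes with ESC RING1B and without crypt RING1B within the window were Slc22a3, Igf2, Calcr, Grb10, Dlk1, Dio3, Ndn, Magel2, Peg12 and Gnas. ESC and crypt lists came from different material and libraries, and which part of a difference comes from either cannot be told apart.

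CTCF was kept at most of the genes that had it, and RAD21 was lost at most. Of the 8 genes with WT CTCF, 6 kept it, and Magel2 (17.2) and Gnas (18.8) lost it (25%, where 12.0% of all genes with a WT peak did). Peg10 and Sgce gained 1 shared peak (as did 1.26% of genes without a WT peak). Of the 6 that kept CTCF, Asb4 and Peg12 had the higher score in KO (36.0% of all such genes), Peg12 with 27.7 in WT and 35.7 in KO. Slc22a3 had CTCF at 101 in KO, and its WT peak (75.0) lay 1031 bp from its end. RAD21 was lost at 5 of 7, Igf2r, Cd81, Kcnq1, Copg2 and Blcap (71.4%, where 41.1% of all genes lost it), all with WT scores of 10.1 to 12.8, and with lists of equal length at none. H13 and Asb4 kept it, both with the higher score in KO (29.5% of all such genes), and none gained it (1.62% of genes without a WT peak did).

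PCGF6 was also listed at genes for proteins that act on imprints. Of 24 genes for regulators of imprinting 14 had PCGF6 in WT crypts (58.3%, beside 39.9% of all genes), and 11 of the 14 had no KO peak (64.4% of all genes with a WT peak lost it). In KO crypts 12.5% of the 24 had PCGF6, beside 13.7% of all genes. Trim28, the corepressor that ZFP57 recruits, scored 557 in WT and 109 in KO. It lost RING1B in both lines (12.8 in WT AhCre, 45.3 in WT Villin crypts). Yy1 (60.8 and 31.4) and Uhrf1, the partner of the maintenance methylase (59.0 and 22), kept PCGF6, whereas Ehmt2, a histone methyltransferase gene (30), and Mbd3, a methyl-CpG-binding family gene (24.8), did not. In WT AhCre crypts Trim28 was the 1 regulator gene with RING1B (4.17% of the 24, beside 7.74% of all genes). In WT Villin crypts 4 of the 24 had RING1B (16.7%, beside 14.2% of all genes). Of the 4, 3 lost it, Trim28, Dnmt3b (14.7) and Tet1 (14.1), where 53.7% of all genes with a WT peak did. KO Villin crypts had RING1B at 4.17% of the 24, beside 7.61% of all genes. Of 38 other imprinted genes found of 40 listed, 9 had PCGF6 in WT crypts (23.7%, beside 39.9% of all genes). None had it in KO crypts (13.7% of all genes did). The highest were Ascl2 (67.7), the creatine synthesis gene Gatm (32.2), Casd1 and Pon2 (24.8 at each) and Phactr2 (23.0). In AhCre crypts 2 of these genes had RING1B in WT (5.26%, beside 7.74% of all genes). Both lost it, Gatm (12.8) and Rasgrf1 (23.2), where 44.7% of all genes with a WT peak did. KO AhCre crypts had RING1B at 2.63% of the 38, beside 4.89% of all genes. In Villin crypts 7 of the 38 had RING1B in WT (18.4%, beside 14.2% of all genes) and 3 in KO (7.89%, beside 7.61%). Of the 7, 4 lost it, Sfmbt2 (20.7), Gatm (12.5), Cobl (10.4) and Peg13 (11.6), where 53.7% of all genes with a WT peak did. The other 3 kept it there, among them Rasgrf1 (25.2 in WT and 14.4 in KO). Peg13 lies inside Trappc9 and carried CTCF at 169 in WT and 107 in KO.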

How the data were processed

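ChIP-seq peak lists of 16 crypt and ESC libraries were used as deposited. Fixation was with 1% formaldehyde (15 min) and fragments were of 500 bp, per the labels' protocols. H2AK119ub1 chromatin carried 5% S2 chromatin, and no spike scaling of the scores is recorded. MACS2 2.1.1, Bowtie 1.1.2 and 1.2.2, and the builds mm10, dm6 and hg38 are listed without roles, per the submitters' processing notes. WT input served as the reference for peak calling, per the labels. The deposited scores are on the −log10 scale of a p or q value from the authors' peak caller, and which of them is not stated. Read depth is unknown.

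Peaks on chromosomes 1 to 19, X and Y were assigned to genes of RefSeq GRCm38.p6 within 1 kb of a gene end, with at least 1 bp of overlap and 1-based positions. The gene table has no strand. Calls were tested on simulated data: all 200 genes with removed peaks were called lost, none with kept peaks was, and bedtools 2.31.1 gave the same gene count in all 16 lists. Python 3.11.15, numpy 2.4.6, pandas 2.3.3 and matplotlib 3.10.9 were used. In 1 description line of the ESC samples PCGF6 and RING1B are exchanged, and titles and antibody tags were used. Values are given for all imprinted genes with a crypt PCGF6, RING1B or H2AK119ub1 peak, and for CTCF and RAD21 at the highest 10 or at lost and gained genes. Genes of the other lists were named from the 5 highest PCGF6 scores and lost RING1B. The genes, lists and definitions were chosen with earlier results of these data known. Windows of 500 bp and 5 kb, whole gene bodies, scores of 20 or more, reciprocal overlap and lists of equal length were tried.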

Additional observations from a re-analysis of the deposited data

Results flagged for a closer look

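H2AK119ub1 at Phlda2, which limits placental growth, moved in opposite directions in the Cre lines. In AhCre crypts the WT list had no peak and the KO list had one of 12.9. In Villin crypts the WT list had a peak of 11.5 and the KO list had none. Each group had 1 library, so the difference was not tested, and both scores lie near the list threshold of 10.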

How the results depend on the processing

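No paired analysis was possible because each group had 1 library and the labels give no replicate numbers. Of 78 recomputed counts 54 stayed within 1.5 times the reported count and 24 did not, and the cause was not tested. With scores of 20 or more, genes with a WT peak were 10 for crypt PCGF6, 5 for AhCre RING1B, 4 for AhCre H2AK119ub1, 5 for Villin RING1B, 0 for Villin H2AK119ub1, 1 for RAD21 and 9 for ESC PCGF6. The 5 kb window gave 23 for CTCF and 16 for RAD21, and whole gene bodies gave 21 for CTCF, 16 for RAD21 and 13 for Villin H2AK119ub1. With WT peaks of 20 or more, lost genes were 1 for PCGF6, 1 for AhCre RING1B, 0 for AhCre H2AK119ub1, 1 for Villin RING1B, 0 for Villin H2AK119ub1, 0 for CTCF and 0 for RAD21. The 500 bp window gave 1 lost CTCF gene. With lists of equal length, which removes the weakest WT peaks, lost genes were 1 for PCGF6, 1 for AhCre RING1B, 1 for Villin RING1B and 0 for RAD21. Apart from whole gene bodies, shares over all genes were not computed at these settings. Setting only overlapping peaks against each other, an alternative chosen after seeing the data, gave 8 and not 9 genes with higher AhCre H2AK119ub1 in KO and 3 and not 2 with higher CTCF. Most lost peaks had WT scores under 20. Read depth is unknown, and its part in the losses was not tested.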
